A study of Mus musculus with 26 samples.

Results

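The untreated state of a pair of engineered mouse cell lines was compared: Ba/F3/gp130 cells carrying synthetic interleukin-22 receptors and Ba/F3/gp130 cells carrying natural ones. The 10 arrays of untreated cells were taken by their labels out of 26 arrays in the series, with 6 from synthetic receptor cells (numbers 7, 9, 11, 12, 13 and 14) and 4 from natural receptor cells (numbers 2, 3, 4 and 5). The other 16 arrays came from natural receptor cells given IL-22 (4 arrays) and from synthetic receptor cells given GFP-mCherry (6 arrays) or mCherry-Fc (6 arrays). Each array gave 19938 genes with a symbol of their own, as log2 intensity.

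Ba/F3 is labelled as a mouse pro-B line that depends on interleukin-3, or on Hyper-IL-6 once it carries gp130. The natural line is labelled IL-10R2/IL-22Rα1 and the synthetic line mCherryVHHIL-10R2/GFPVHHIL-22Rα1. All cells were kept in Hyper-IL-6, a fusion of IL-6 with its soluble receptor, then washed 4 times and starved without serum for 4 h. Other cells then received 100 ng/ml of protein for 2 h. The untreated cells received none, so the comparison asks how far the lines differ before any ligand is added. The labels do not say whether each line is a single clone, which promoter or vector carries the chains, or whether arrays of a line came from separate cultures, so the p-values measure the spread between these arrays, which may be technical.

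IL-22 is a cytokine of the IL-10 family. Its receptor pairs IL-22Rα1, which binds the cytokine and carries most docking sites for signalling proteins, with IL-10R2, a chain shared by several relatives of IL-10, and signals through the kinases JAK1 and TYK2 mainly to STAT3. A VHH is the single-domain antibody fragment of camelids. In a synthetic receptor of this kind it stands in for the cytokine-binding part, so that a fluorescent protein brings the chains together. Starvation without cytokine is known to lower STAT5, MAPK and PI3K signalling in Ba/F3 cells, and the products of many target genes of these pathways turn over quickly.

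In the untreated cells 3034 genes (15.2% of 19938) differed between the lines past an adjusted p of 0.05 (limma with Benjamini-Hochberg adjustment, used for every adjusted p here). Of these, 1715 (8.6%) were higher and 1319 (6.62%) were lower in synthetic receptor cells. Fitted on the 10 untreated arrays alone, without the spread of the other 16, the counts were 854 higher and 868 lower. Counts in the gene lists below are to be read against the shares of 8.6% higher and 6.62% lower over all genes. Most differences were small: the median size over the 3034 genes was 0.34 on the log2 scale, 469 genes (2.35%) differed at least 1.5-fold and 159 genes (0.797%) at least 2-fold. At this size the direction was uneven, with 31 genes (0.155%) higher and 128 genes (0.642%) lower in synthetic receptor cells. At 4-fold or more, 5 genes were higher and 27 lower, together 0.16% of genes. For 18563 genes (93.1%) the 95% interval of the difference lay within 1.5-fold either way, and the median difference over all genes was 0.01. All 6 synthetic arrays lay on one side of all 4 natural arrays for 2002 genes (10%), 147 of them among the 159.

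**Figure D1:**
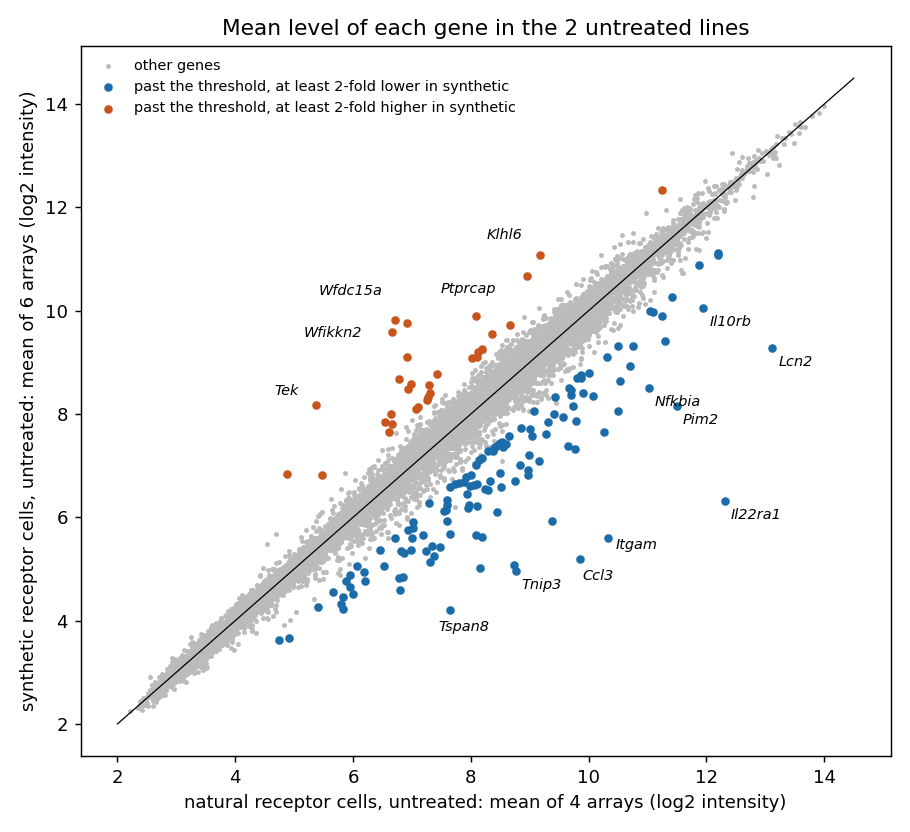
Mean log2 intensity of each gene over the 4 natural receptor arrays (horizontal) and the 6 synthetic receptor arrays (vertical), untreated; the line marks equal levels. The 128 genes at least 2-fold lower in synthetic cells (blue) lie below the line, and the 31 at least 2-fold higher (orange) lie above it.

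The arrays of a line were not alike. Natural arrays 2 and 3 lay nearer to the synthetic arrays on the first principal component (47.7% of the variance, with scores of -8.00 and -11.68) than natural arrays 4 and 5 did (-29.84 and -30.96), and synthetic arrays 7, 9 and 11 (2.76 to 7.05) lay apart from 12, 13 and 14 (17.90 to 25.36). The comparison of the untreated lines, the gene lists and the named genes were therefore also computed within the low numbers (natural 2 and 3, synthetic 7, 9 and 11) and within the high numbers (natural 4 and 5, synthetic 12, 13 and 14). In these fits the difference used the named untreated arrays only, but the 16 ligand-treated arrays stayed in for the estimate of spread. Their numbers fall in both ranges, so an adjusted p within a range does not rest on the named arrays alone. Within the low numbers 1341 genes (6.73%) passed the threshold, 447 higher (2.24%) and 894 lower (4.48%). Within the high numbers 5003 genes (25.1%) did, 3242 higher (16.3%) and 1761 lower (8.83%). Gene list counts within a range are to be read against the shares of that range. Of the 159 genes at least 2-fold apart, 156 had the same sign and 103 passed the threshold in both ranges and in both crossings of them. Of the 3034 genes, 2837 had the same sign and 483 passed in all 4 of these splits. Each split reuses arrays from which these genes were picked, so a shared sign is largely built in and is no independent check. Without natural array 4 the genes called higher fell to 1007, and without natural array 5 the genes called at least 2-fold lower fell to 85. Array medians of the 10 arrays ran from 6.17 to 6.28, and no 2 arrays held identical values. What the numbers stand for is not given in the sources used here.

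The label of a pro-B line was set against 25 measured B lineage markers. Of these, 12 were below 5.77 in both lines, the level under which 95% of 1207 olfactory, vomeronasal and trace amine receptor genes lay and which is called the dim level here. Pax5, the factor that commits cells to the B lineage, was dim at 5.55 ± 0.06 (mean ± SD, n = 4) in natural and 5.39 ± 0.11 (n = 6) in synthetic cells. Ebf1, which acts just before it, was also dim, at 4.68 ± 0.14 and 4.76 ± 0.15. Markers well above the dim level were Cd79a (9.35 and 9.51), a signalling chain of the B cell receptor, and Ptprc (10.58 and 10.71), which encodes CD45 of all white cells. Outside the list, Gata2 of mast cells and progenitors (12.29 and 12.38) and Prtn3, a protease of early myeloid cells (10.02 and 10.59), were far above it, both picked after their values were seen. Of the lists that hold them, 15 of 24 mast cell and basophil markers and 7 of 26 myeloid markers were dim in both lines. Of the 25 markers 3 were lower and 0 higher in synthetic cells: Bank1 at log2 -2.01 (adjusted p = 7.47e-09), Cd72 at -0.93 (0.000375) and Btk at -0.68 (0.000336). These are 12% of the markers, below the 15.2% of all genes that passed in either direction. Within the low numbers only Bank1 passed (adjusted p = 0.000209).

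The receptor chains gave the largest difference of all. Il22ra1 read 12.38, 12.43, 12.22 and 12.22 in natural arrays 2, 3, 4 and 5, the order used for natural arrays throughout, and 6.18 to 6.48 (median 6.31) in synthetic arrays. Every synthetic array lay far below every natural one, 63.9-fold on the means (log2 -5.997, SE 0.06, adjusted p = 6.79e-32). A second Il22ra1 probe set read 5.84 and 6.003 and did not pass (adjusted p = 0.369), which leaves 1 of 2 probe sets with a difference. Il10rb, for IL-10R2, read 12.21, 12.07, 11.79 and 11.71 against 9.99 to 10.16 (median 10.02), 3.71-fold lower in synthetic cells (log2 -1.89, SE 0.08, adjusted p = 3.39e-16). Which part of an introduced chain the probes match, and of which species it is, is not given in the sources used here, so these levels do not compare the receptors themselves. Il6st, the mouse gene for gp130, was dim in both lines (5.05 and 4.95), with a 95% interval of the difference from -0.21 to 0.02.

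Other receptors of the family differed as well. Of 11 class II cytokine receptors 4 were lower and 1 was higher in synthetic cells. Ifngr2, the signalling chain of the interferon-γ receptor, read 9.97, 9.92, 10.58 and 10.79 against 8.90 to 9.29 (median 9.12), with no overlap (log2 -1.21, adjusted p = 3.25e-07). Its partner Ifngr1, the binding chain, went the other way by 0.32 (adjusted p = 0.00125), and natural array 2, at 9.04, overlapped the synthetic range of 9.03 to 9.20. Il22ra2, the soluble decoy that binds IL-22, was lower by 1.13 (adjusted p = 0.000639), from natural values of 5.03, 4.74, 5.60 and 6.24. Of these only that of array 5 lay above the dim level, so on the means Il22ra2 was dim in both lines. It did not pass within the low numbers (adjusted p = 0.291).

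The receptor through which Ba/F3 cells use interleukin-3 was close to equal. Il3ra, its specific chain, read 9.07 and 9.05 on the means (95% interval -0.17 to 0.13). Csf2rb and Csf2rb2, a pair of closely related genes for the signalling chain, differed by -0.06 (-0.34 to 0.22) and 0.04 (-0.19 to 0.27). For Csf2rb this hid a spread within the natural line: arrays 2 and 3 read 11.63 and 11.63, arrays 4 and 5 read 12.36 and 12.57, and the synthetic arrays (11.82 to 12.14) fell between them. Csf2ra, the specific chain for GM-CSF, was 2.10-fold higher in synthetic cells, where it read 8.96 to 9.21 (median 9.11) against 7.71, 8.19, 8.39 and 7.78, and the groups did not overlap (adjusted p = 3.33e-09).

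Chains of the interleukin-2 receptor were lower. Il2rb read 6.42, 6.45, 7.08 and 7.497 against 4.95 to 5.71 (log2 -1.56, adjusted p = 2.57e-06), and Il2ra read 5.75, 5.71, 6.11 and 6.25 against 4.53 to 4.85 (log2 -1.30, adjusted p = 1.25e-07). Il2rb was above the dim level in natural and below it in synthetic arrays, and Il2ra lay near the dim level in natural and below it in synthetic arrays. Il4ra was lower by 0.29 (adjusted p = 0.00778), a call that was lost without natural array 5 (adjusted p = 0.0506). In all, 3 of 14 measured receptors of the common gamma, beta and interleukin-3 family were lower and 1 was higher. Of 12 IL-6 family and other class I receptors, and of 10 receptors of the IL-1, IL-17 and IL-18 family, 0 passed the threshold.

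RNA of the STAT genes, whose proteins carry the signal, was near equal or slightly higher in synthetic cells. Stat3 read 10.87 ± 0.10 (n = 4) and 10.98 ± 0.08 (n = 6), a difference of 0.11 (95% interval -0.01 to 0.23). Stat5a read 9.14, 9.25, 9.12 and 9.23 against 9.45 to 9.51 and was 1.23-fold higher without overlap (adjusted p = 0.000206). Stat5b (log2 0.28, adjusted p = 0.00149) and Stat2 (0.22, adjusted p = 0.0401) were higher too, so 3 of 9 JAK and STAT genes rose and 0 fell. The call for Stat2 was lost without any one of 7 of the 10 arrays. Among 8 SOCS genes, which encode feedback inhibitors of JAKs, Socs5 was higher by 0.32 (adjusted p = 0.00345) and Cish lower. Socs3, the main STAT3 feedback gene, did not pass: it read 7.59, 7.38, 7.78 and 7.36 against 7.21 to 7.66 (95% interval -0.27 to 0.06).

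Target genes of STAT5, the factor through which interleukin-3 keeps Ba/F3 cells alive, lay lower in synthetic cells: 10 of 19 were lower, 0 higher, with a list median of -0.28 against 0.01 over all genes. Pim2, a kinase that supports survival and translation, read 10.87, 10.98, 11.93 and 12.20 in natural arrays and 7.94 to 8.35 (median 8.17) in synthetic ones, 10.1-fold lower without overlap (log2 -3.33, SE 0.19, adjusted p = 2.15e-13). Its relative Pim1 read 10.04, 10.03, 10.87 and 11.05 against 8.85 to 9.77 (log2 -1.18, adjusted p = 1.2e-05). The size of the Pim1 difference followed the numbers of the arrays, with log2 -0.36 within the low numbers and -2.001 within the high ones. Cish, a STAT5 feedback gene, was lower by 0.75 (adjusted p = 6.87e-05) but did not pass within the low numbers (log2 -0.23, adjusted p = 0.101). Bcl2l1, for the survival protein BCL-XL, was lower by 0.37 (adjusted p = 0.000305), and Myc by 0.28 (adjusted p = 0.0156), a call that was lost without natural array 4 or 5. Within the low numbers 6 of the 19 were lower, and within the high numbers 9 were lower and 1 higher.

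The list of STAT3 targets shares Pim1 and Bcl6 with that of STAT5. Of its 24 measured genes 8 were lower and 0 higher, with a median of -0.18, and the count was 5 without natural array 4 and 4 without natural array 5. Bcl3, a STAT3 target, missed the threshold (log2 -0.26, adjusted p = 0.0601).

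NF-kB genes made up the list with the largest share of lower genes. NF-kB is a family of factors that is held in the cytoplasm by IkB proteins until a signal frees it. It then raises inflammatory genes together with its own inhibitors. Of 23 measured genes of the pathway and its targets 16 were lower in synthetic cells and 0 higher, with a median of -0.54. The 16 were Ccl3, Tnip3, Nfkbia, Ltb, Tnf, Tnip1, Traf1, Tnfaip3, Nfkbiz, Nfkbie, Nfkb2, Ccl4, Relb, Birc3, Icam1 and Nfkbib. Leaving out any one array gave 16 or 17, and there were 12 lower genes within the low numbers and 17, with 1 higher, within the high numbers.

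Ccl3, a chemokine also called MIP-1α, read 9.38, 9.63, 10.13 and 10.27 in natural arrays and 4.81 to 5.49 (median 5.20) in synthetic arrays, all of which were dim. Against the dim level, which bounds the fold of a gene that is dim in a line, it was at least 17-fold lower (measured log2 -4.66, SE 0.18, adjusted p = 6.04e-17). Tnip3, an inhibitor in the A20 pathway, read 8.45, 8.44, 8.92 and 9.25 against 4.73 to 5.13 (median 4.99), at least 7.98-fold lower (measured log2 -3.81, adjusted p = 3.38e-18), and was likewise dim in every synthetic array. Both genes were thus measured well in one line and at background level in the other.

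Nfkbia, which encodes IkBα, read 10.49, 10.48, 11.47 and 11.67 against 8.37 to 8.76 (median 8.45), 5.74-fold lower (log2 -2.52, adjusted p = 1.98e-10). Ltb, a lymphotoxin chain, read 10.28, 10.35, 10.62 and 10.87 against 8.37 to 8.93 (log2 -1.89, adjusted p = 8.76e-10). Tnf read 7.24, 7.13, 7.84 and 7.95 against 5.82 to 6.46 (log2 -1.42, adjusted p = 4.86e-06). For all of these 5 genes the groups did not overlap and the threshold was passed within the low and within the high numbers. They were named as the largest differences of the list in these same arrays, so this is largely built in.

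Promoters of NF-kB targets often carry the kappa B consensus, the sequence the factor binds. To show what it looks like in genes that differed here, 3 promoters from the RefSeq table on build GRCm38.p6 are printed, each as the 250 bases before the gene's annotated start on the gene's strand, with matches to the consensus on either strand in capitals. The promoter of Tek, a gene higher in synthetic cells that is described further on, is printed for contrast and held no match. Most promoters held none either. The windows are chr6:65590148-65590397 on the + strand for Tnip3, chr12:55492648-55492897 on the - strand for Nfkbia, chr17:35194257-35194506 on the + strand for Ltb and chr4:94739039-94739288 on the + strand for Tek.
Tnip3: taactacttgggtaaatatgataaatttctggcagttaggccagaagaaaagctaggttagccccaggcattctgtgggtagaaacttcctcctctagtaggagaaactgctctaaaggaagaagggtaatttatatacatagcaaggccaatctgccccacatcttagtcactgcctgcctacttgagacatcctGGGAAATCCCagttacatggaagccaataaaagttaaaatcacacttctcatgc
Nfkbia: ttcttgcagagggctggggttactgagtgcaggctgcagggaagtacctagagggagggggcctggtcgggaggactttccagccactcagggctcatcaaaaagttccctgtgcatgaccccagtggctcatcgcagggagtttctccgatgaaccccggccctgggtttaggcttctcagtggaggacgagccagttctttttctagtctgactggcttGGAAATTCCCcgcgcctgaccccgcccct
Ltb: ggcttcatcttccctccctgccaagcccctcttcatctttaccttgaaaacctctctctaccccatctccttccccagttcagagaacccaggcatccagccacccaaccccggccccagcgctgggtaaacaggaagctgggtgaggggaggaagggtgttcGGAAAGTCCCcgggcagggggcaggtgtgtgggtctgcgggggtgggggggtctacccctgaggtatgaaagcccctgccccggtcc
Tek: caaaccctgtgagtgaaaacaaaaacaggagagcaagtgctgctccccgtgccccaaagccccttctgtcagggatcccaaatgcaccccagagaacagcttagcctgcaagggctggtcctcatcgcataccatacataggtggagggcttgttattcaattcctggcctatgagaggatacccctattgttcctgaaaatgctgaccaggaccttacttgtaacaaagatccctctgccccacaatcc
The match lay 54 to 45 bases before the start in Tnip3, where it reads as a match on both strands, 29 to 20 bases before it in Nfkbia and 87 to 78 bases before it in Ltb. Of the 16 lower genes 13 had a promoter in the table, and 7 of these (53.8%) held the consensus in at least 1 window. So did 2 of 5 list members that did not pass (40%) and 5.05% of the 15614 measured genes with a promoter. By window the share was 9 of 16 for the lower genes, against 3.9% of all 32851 windows, and 3 of the 9 were windows of Nfkb2. The windows of Ccl3 and Tnf held none. TTCNNNGAA, the core of the STAT site, was searched in the same windows on both strands: it lay in 7.02% of all windows, in 0 of 9 windows of the STAT5 list members that were lower and in 4 of 16 windows (25%) of the lower NF-kB members, that of Ltb among them. A match describes letters only, and overlap between both motifs was not examined. The list was made of pathway genes and targets of NF-kB, so a share above that of all genes does not bear on the difference between the lines.

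In the tumour necrosis factor receptor family 7 of 22 measured receptors were lower and 1 higher, together 36.4% against 15.2% of all genes. Within the low numbers 2 were lower and 1 higher (median -0.045). Within the high numbers 8 were lower and 2 higher (median -0.23). Eda2r, the receptor for ectodysplasin A2, read 6.67, 6.49, 6.80 and 7.16 against 4.32 to 5.22 (log2 -1.96, adjusted p = 1.78e-09). Tnfrsf9, also called 4-1BB, read 7.42, 7.56, 8.23 and 8.54 against 6.22 to 6.68 (log2 -1.49, adjusted p = 1.31e-06). The groups did not overlap for either gene. Fas, the death receptor, was lower by 0.93 (adjusted p = 0.00268) and Tnfrsf1b, for TNF receptor 2, by 0.62 (adjusted p = 3.47e-05), and neither passed within the low numbers (adjusted p = 0.146 and 0.136). Tnfrsf21 was the 1 receptor that was higher (log2 0.36, adjusted p = 0.000118).

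Genes of the immediate early response and of MAPK feedback, which follow growth factor signals within minutes to hours, were more often lower than higher: 14 of 30 fell, 2 rose, and the median was -0.23. Without natural array 5 the 14 became 9, and within the low numbers 8 fell with a median of -0.06. Etv5, a factor induced by ERK signalling, read 8.73, 8.85, 8.82 and 8.92 against 6.61 to 7.37 (log2 -1.81, adjusted p = 5.76e-13). Dusp6, the phosphatase that switches ERK off again, read 9.72, 9.62, 10.06 and 10.20 against 8.37 to 8.52 (log2 -1.495, adjusted p = 4.57e-12). Natural and synthetic arrays were well apart for both, in both ranges of numbers. Phlda1 (log2 -1.46) and Fosl1 (-1.05), an AP-1 factor, were lower within both ranges too. Ier3, an early gene of stress signals, differed only where the high numbers entered: it read 8.07, 7.98, 9.81 and 10.26 against 7.22 to 8.04, by -0.20 within the low numbers (adjusted p = 0.61) and -2.71 within the high ones. The 2 genes that were higher were Klf6 (log2 0.51, adjusted p = 0.0111) and Nr4a2 (0.36, adjusted p = 0.02), and both calls were lost without natural array 4 or 5, that of Nr4a2 also without synthetic array 13.

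**Figure D2:**
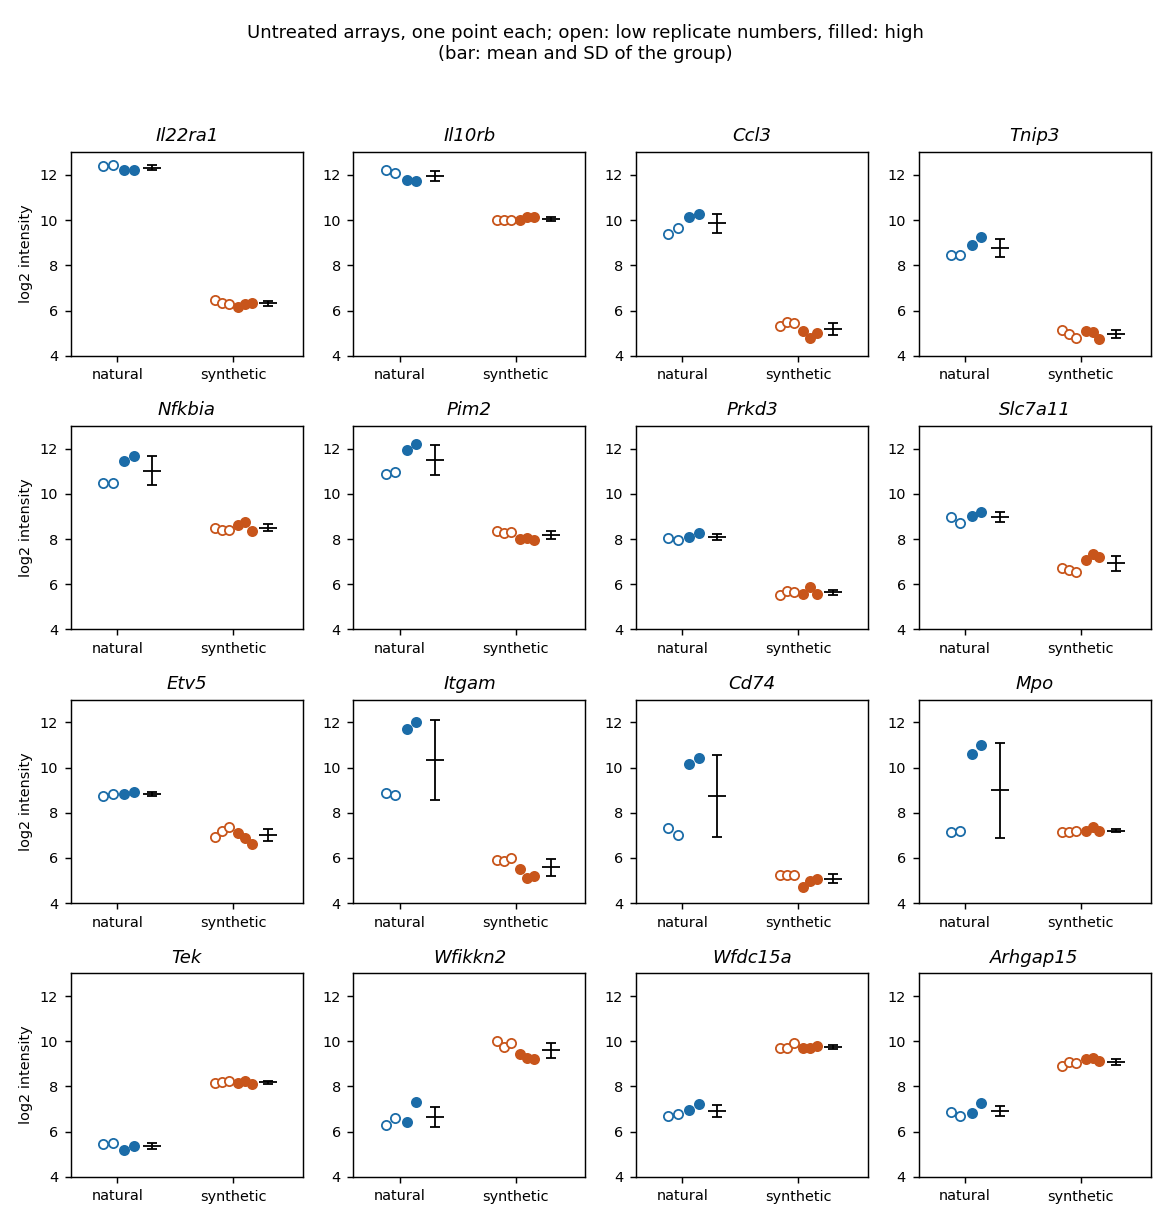
Log2 intensity of 16 genes in each untreated array: blue, 4 natural receptor arrays; orange, 6 synthetic receptor arrays; open points, low numbers; filled points, high numbers; bars, mean and SD of the group. Il22ra1, Ccl3, Tnip3, Prkd3, Tek and Wfdc15a separate the lines in every array, while for Itgam, Cd74 and Mpo natural arrays 4 and 5 lie far above 2 and 3.

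Of 26 measured myeloid markers 13 were lower and 1 was higher in synthetic cells, with a median of -0.40. This rested largely on natural arrays 4 and 5: without either of them 8 were lower, within the low numbers 2, and within the high numbers 18. Over all genes 4.48% were lower within the low numbers and 8.83% within the high numbers. The summed log2 level of the list was 180.8 to 206.7 in natural arrays and 170.6 to 177.5 in synthetic arrays. In bulk samples fewer cells of a type and less RNA per cell cannot be told apart.

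Itgam, the integrin chain CD11b of macrophages and neutrophils, read 8.85 and 8.77 in natural arrays 2 and 3, 11.73 and 11.99 in arrays 4 and 5, and 5.10 to 5.99 (median 5.68) in synthetic arrays. It was lower in synthetic cells throughout (log2 -4.75, SE 0.55, adjusted p = 4.65e-07), by 2.90 within the low and 6.59 within the high numbers. Its partner chain Itgb2 read 8.24, 8.25, 9.89 and 10.28 against 6.05 to 7.84 (log2 -2.08, adjusted p = 0.00354) and did not pass within the low numbers (log2 -0.50, adjusted p = 0.7).

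Mpo, the myeloperoxidase of granule-forming myeloid cells, showed the split most plainly. It read 7.16 and 7.19 in natural arrays 2 and 3, as in the synthetic arrays (7.15 to 7.36), and 10.62 and 11.00 in arrays 4 and 5. Its difference over all 10 arrays was log2 -1.79 (adjusted p = 0.0484), which was -0.02 within the low numbers and -3.56 within the high ones, and the call was lost without natural array 4 or 5 or any synthetic array. Lyz2, for lysozyme, read 5.24, 5.11, 7.53 and 8.21 against 4.42 to 5.26 (log2 -1.46, adjusted p = 0.0311, lost without natural array 4 or 5 or synthetic array 14). Adgre1, a macrophage surface marker (log2 -1.49, adjusted p = 0.00466), and S100a8, a neutrophil calcium-binding protein (-1.37, adjusted p = 0.0151, lost without natural array 4 or 5), were likewise not past the threshold within the low numbers (adjusted p = 0.691 and 0.775). Prtn3 was the 1 marker that was higher, at 10.50 to 10.69 against 10.00, 10.09, 9.95 and 10.04 (log2 0.57, adjusted p = 4.48e-08), and it was higher within both ranges.

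Surface receptors of myeloid cells followed. Of 32 Fc and C-type lectin receptors 14 were lower and 0 higher, and 18 were dim in both lines. Fcgr1, Cd33, Fcgr3 and Fcer1g among the 14 also count among the lower myeloid markers. The 14 became 8 without natural array 4, 7 without natural array 5 and 9 without synthetic array 13 or 14. They were 9 when the untreated arrays were fitted alone and 3 within the low numbers. Lilrb4a, an inhibitory receptor, read 6.003, 6.07, 7.20 and 7.92 against 4.49 to 4.78, where it was dim (log2 -2.20, adjusted p = 2.71e-07), and passed within both ranges. Milr1, an inhibitory receptor of mast cells outside this list, read 8.55, 8.32, 10.09 and 10.57 against 5.61 to 6.23 (log2 -3.46, adjusted p = 3.44e-09). Clec4e (log2 -1.44, adjusted p = 0.000464) did not pass within the low numbers (adjusted p = 0.244), and Fcgr2b (-1.36, adjusted p = 0.0463) lost its call without natural array 4 or 5 or any synthetic array. Of the markers of other cells that such a culture could hold, 1 of 23 T and NK cell genes (Gzmb, a granule protease, higher by 0.61, adjusted p = 0.00516), 1 of 24 mast cell and basophil genes (Hdc, lower by 0.41, adjusted p = 0.0308, lost without natural array 4 or 5 or synthetic array 9 or 13) and 1 of 20 fibroblast and epithelial genes passed. Of 14 megakaryocyte and platelet markers 4 were lower (Thbs1, Gp9, P2rx1 and Ppbp) and 0 higher. These are 28.6%, against 6.62% of all genes that were lower. Within the low numbers 0 of them passed, and within the high numbers 4 were lower and 2 higher. Kit, the mast cell growth factor receptor, was dim in both lines (5.49 and 5.49).

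More genes split the natural line in the same way. Cd74, the invariant chain of MHC class II, read 7.31, 7.03, 10.16 and 10.42 against 4.72 to 5.24 (log2 -3.65, adjusted p = 1.34e-05). Of 8 MHC class II genes it was the 1 that passed. Adam8, a surface protease, read 8.82, 8.87, 11.53 and 11.85 against 7.57 to 7.73, and Thbs1, for thrombospondin-1, read 6.95, 7.00, 9.71 and 10.11 against 5.90 to 6.35. Adam8 and Thbs1 passed over all 10 arrays (adjusted p = 0.000153 and 0.0018) and missed the threshold within the low numbers (adjusted p = 0.141 and 0.524), although every natural array lay above every synthetic one. Cd52, a small surface glycoprotein, read 5.95, 5.60, 8.65 and 9.00 against 5.04 to 5.26 (log2 -2.17, adjusted p = 0.0075, lost without natural array 4 or 5). Lcn2, the siderophore-binding protein lipocalin-2, was high in all natural arrays (12.90, 12.82, 13.34 and 13.42) and spread in synthetic ones (7.79 to 10.22, median 9.81), 14.4-fold lower on the means (adjusted p = 2.08e-05).

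In other genes natural arrays 4 and 5 lay close to arrays 2 and 3. Prkd3, a protein kinase D, read 8.06, 7.96, 8.09 and 8.27 against 5.54 to 5.86 (median 5.61), at least 5.02-fold lower against the dim level (measured log2 -2.45, adjusted p = 8.64e-17). Its synthetic mean was dim. Slc7a11, the cystine and glutamate exchanger, read 8.97, 8.69, 9.03 and 9.18 against 6.56 to 7.34 (log2 -2.05, adjusted p = 9.52e-12). Gpr84, which senses medium-chain fatty acids, read 8.14, 8.38, 7.88 and 8.01 against 6.03 to 6.44 (log2 -1.89, adjusted p = 9.07e-12). Tspan8, a tetraspanin, and Ctsj, a cathepsin known from placenta, were higher in natural arrays 2 and 3 than in 4 and 5. Tspan8 read 8.25, 7.94, 7.41 and 7.01 against 4.08 to 4.41 (log2 -3.45, adjusted p = 5.23e-15). Ctsj read 8.86, 8.78, 7.63 and 7.35 against 4.73 to 5.19 (log2 -3.14, adjusted p = 2.54e-11). Lcp2, for the adaptor SLP-76, was higher in arrays 4 and 5 and read 7.52, 7.44, 8.85 and 8.95 against 5.39 to 5.95 (log2 -2.56, adjusted p = 8.44e-09).

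By the dim level, 14 genes were present in one line and dim in the other with at least a 4-fold difference. Of these, 13 were present in natural receptor cells: Itgam, Ccl3, Tnip3, Cd74, Tspan8, Ctsj, Lcp2, Prkd3, Lilrb4a, Cd52, Mefv, Got1l1 and Bank1. The 1 gene present in synthetic receptor cells was Tek. With the 90th percentile of the receptor genes as the dim level the 14 became 9, and with the 99th they became 19. Of 13050 genes at or above the dim level in a line 22.3% passed the threshold, against 125 of 6888 genes dim in both.

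At least 2-fold, fewer genes were higher in synthetic receptor cells than lower (31 against 128). Tek, which encodes the angiopoietin receptor TIE2, read 5.44, 5.51, 5.17 and 5.36 in natural arrays and 8.12 to 8.23 (median 8.17) in synthetic ones, at least 5.31-fold higher against the dim level, as its natural arrays were dim (measured log2 2.81, SE 0.08, adjusted p = 4.83e-20). The 1 gene at least 8-fold higher was a predicted locus, 1700012B07Rik, which the rule for named genes leaves out. Wfikkn2, a secreted protease inhibitor that binds myostatin, read 6.30, 6.60, 6.44 and 7.30 against 9.19 to 10.01 (log2 2.93, adjusted p = 3.45e-13), and a second probe set of it was higher by 1.29. Wfdc15a, a small secreted protein of the WAP family, read 6.69, 6.77, 6.95 and 7.24 against 9.68 to 9.92 (log2 2.84, adjusted p = 8.56e-19). Each of the 3 was higher in 6 of 6 synthetic arrays.

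Arhgap15, a Rac GTPase-activating protein, read 6.87, 6.71, 6.81 and 7.25 against 8.89 to 9.26 (log2 2.19, adjusted p = 1.04e-13). Ptprcap, which binds CD45, read 8.16, 8.20, 8.07 and 7.90 against 9.72 to 10.06 (log2 1.80, adjusted p = 2.29e-16). Klhl6, a ubiquitin ligase adaptor of B cells, read 9.62, 9.41, 8.85 and 8.78 against 10.79 to 11.43 (log2 1.91, adjusted p = 2.55e-09). The other 8 of the 14 largest rises were Lrriq3 (log2 1.96), Serpini1 (1.90), Nxt2 (1.71), Bace1 (1.56), Akr1e1 (1.35), Cc2d2a (1.35), Nos3 (1.30) and Tspo2 (1.28). All 14 passed the threshold within the low and within the high numbers and in 26 of 26 arrays the synthetic line lay above the natural one, ligand-treated arrays included. Over all genes 561 (2.81%) lay above in this way. The 14 were picked as the largest rises in the untreated arrays, so their passing within these arrays is largely built in.

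Tspo2, a translocator of red cell precursors, belongs to 15 erythroid markers of which 5 were higher and 1 was lower (median 0.09). Klf1, the erythroid master factor, read 8.35, 8.47, 8.25 and 8.33 against 8.83 to 9.00 (log2 0.57, adjusted p = 6.17e-07). Tal1 (0.46), Tfrc (0.31), for the transferrin receptor, and Gata1 (0.23) were higher by less, and the call for Gata1 (adjusted p = 0.0424) was lost without any one of natural arrays 2, 3 and 4 and synthetic arrays 11, 13 and 14. Epb42 was the 1 that was lower (log2 -0.46, adjusted p = 0.0274), a call lost without natural array 4 or 5 or synthetic array 12.

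**Figure D3:**
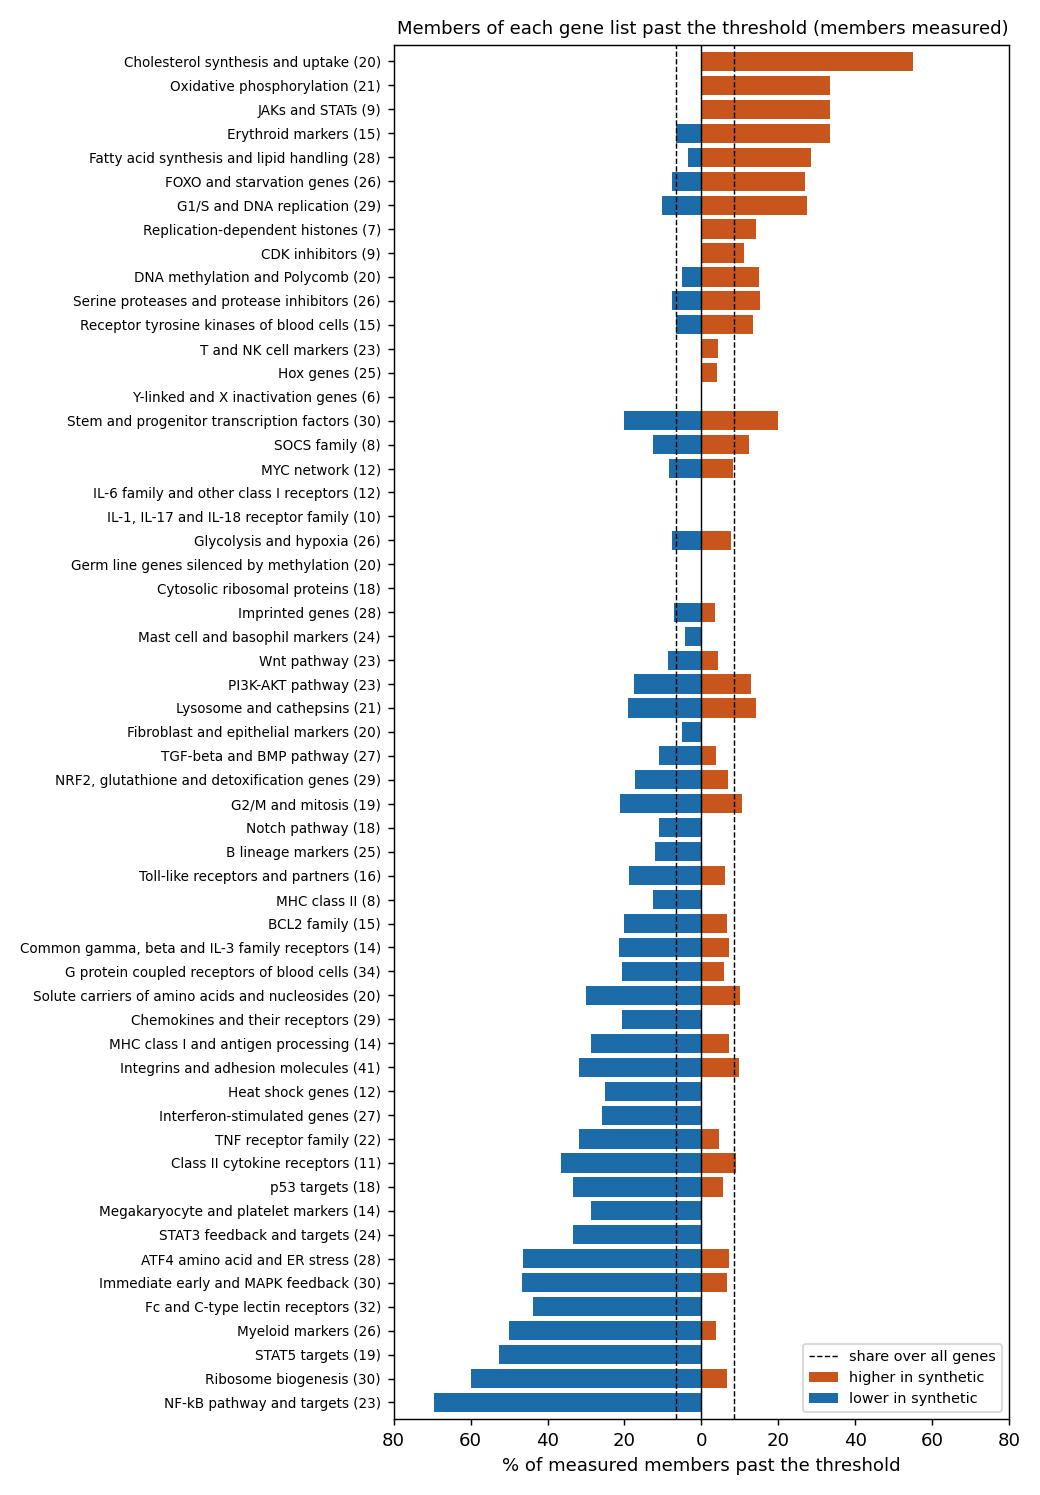
Percent of the measured members (in brackets) of 57 gene lists with at least 6 measured members past the threshold, leaving out the 3 receptor chains, higher in synthetic receptor cells to the right and lower to the left; dashed lines mark 8.6% and 6.62%, the shares over all genes. NF-kB, ribosome biogenesis and STAT5 genes reach furthest to the left among these, and cholesterol synthesis genes furthest to the right.

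Metabolic and growth genes differed by small amounts. Of 30 ribosome biogenesis genes, which build ribosomes in the nucleolus and follow growth signals, 18 were lower and 2 higher, with a median of -0.22. The difference was larger among the low numbers, where 17 were lower, against 4.48% of all genes. Within the high numbers 5 were lower and 5 higher, against 8.83% and 16.3% of all genes. Without natural array 2 the lower genes were 11. Tsr1 read 9.00, 8.95, 8.62 and 8.66 against 7.84 to 8.62 (log2 -0.60, adjusted p = 0.00454) and differed by -1.003 within the low and -0.20 within the high numbers. Nolc1 (-0.60), Nop56 (-0.57) and Nop2 (-0.55), all of the nucleolus, passed within both ranges, while Polr1b (-0.59), of RNA polymerase I, passed within the low one. The 2 that were higher were Fbl (log2 0.34, adjusted p = 0.0022) and Polr1c (0.23, adjusted p = 0.0123, lost without natural array 4 or 5), and a second Fbl probe set did not pass (adjusted p = 0.0956). Of 18 cytosolic ribosomal protein genes 0 passed the threshold.

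Of 28 genes of the ATF4 amino acid response and of endoplasmic reticulum stress 13 were lower and 2 higher (median -0.17). Asns, for asparagine synthetase, read 11.93, 11.91, 11.76 and 11.71 against 11.16 to 11.23 (log2 -0.63, adjusted p = 3.67e-09), apart in every array. Nupr1 (-0.82), Phgdh (-0.58) of serine synthesis and Slc7a5 (-0.44), a large amino acid transporter, were lower as well, Slc7a5 by -0.71 within the low and -0.16 within the high numbers (adjusted p = 0.318). The 2 genes that were higher were Xbp1 (0.32, adjusted p = 0.000321) and Psph (0.20, adjusted p = 0.0375), the latter lost without any one of 7 arrays.

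Genes of cholesterol synthesis and uptake went the other way. Of 20, 11 were higher and 0 lower, with a median of 0.36. None was past the threshold within the low numbers (0 of 20, median 0.07), and 18 were within the high numbers (median 0.59). Over all genes 2.24% were higher within the low numbers and 16.3% within the high numbers. Dhcr7, of the last step of synthesis, read 10.28, 10.26, 9.88 and 9.81 against 10.59 to 10.99 (log2 0.71, adjusted p = 2.71e-05). Nsdhl (0.55) and Fdps (0.49) did not overlap between the groups either. Cyp51 read 9.27, 9.17, 8.61 and 8.53 against 9.14 to 9.72 (log2 0.52, adjusted p = 0.0176, lost without natural array 4 or 5), and its difference within the low numbers was -0.01. Lss (0.58, adjusted p = 0.0035) overlapped too. Dhcr7 and Cyp51 were thus lowest in natural arrays 4 and 5, in which Mpo and Lyz2 were highest. In the related list of fatty acid synthesis and lipid handling 8 of 28 were higher and 1 lower, among them Fads2 (0.76), a fatty acid desaturase, Abca1 (0.70), a cholesterol exporter, and Elovl6 (0.58), none of which passed within the low numbers (adjusted p = 0.147, 0.701 and 0.527).

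Of 21 oxidative phosphorylation genes 7 were higher and 0 lower, with Atp5a1 (log2 0.26, adjusted p = 0.00384) and Ndufa4 (0.28, adjusted p = 0.0243) as examples. The call for Ndufa4 was lost without natural array 3, 4 or 5 or synthetic array 13 or 14. This count was 2 without natural array 4 or 5, 3 without synthetic array 13 or 14 and 4 without natural array 3, 2 when the untreated arrays were fitted alone, and 0 within the low numbers. Of 29 genes of the G1/S transition and DNA replication 8 were higher, such as Mcm3 (0.25, adjusted p = 0.0107, lost without natural array 4 or 5), and 3 lower, such as Ccne1 (-0.38, adjusted p = 0.000588). The 8 became 4 without natural array 4, 3 without natural array 5 and 5 without synthetic array 13. Fitted on the untreated arrays alone 1 was higher, and within the low numbers 1 was higher and 4 lower. Aurkb, a mitotic kinase, stood apart from these small shifts at 9.76, 9.66, 9.57 and 9.56 against 10.31 to 10.42 (log2 0.73, adjusted p = 9.24e-11). Of the 19 measured G2/M and mitosis genes that include it 2 were higher and 4 lower (median -0.047). Within the low numbers 1 was higher and 5 lower, and within the high numbers 6 were higher and 0 lower. Mxd4, a partner of MAX that opposes MYC, read 8.92, 8.72, 8.52 and 8.52 against 9.57 to 9.89, 2.08-fold higher (adjusted p = 1.7e-09).

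Of 26 FOXO and starvation genes, which rise when PI3K signalling stops, 7 were higher and 2 lower. Pik3ip1, an inhibitor of PI3K, read 8.15, 8.10, 8.23 and 8.24 against 8.66 to 8.90 (log2 0.63, adjusted p = 9.38e-05), and Txnip, which restrains glucose uptake, was lower by 0.70 (adjusted p = 0.00814, lost without natural array 5). Of 23 PI3K-AKT pathway genes 3 were higher and 4 lower, together 30.4%. The share was 15.2% over all genes and 22.3% over genes at or above the dim level in a line. Pik3cd and Pik3cg, the catalytic subunits of white cells, were lower by 1.44 (adjusted p = 6.36e-08) and 0.76 (adjusted p = 1.15e-07), each in 6 of 6 synthetic arrays.

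**Figure D4:**
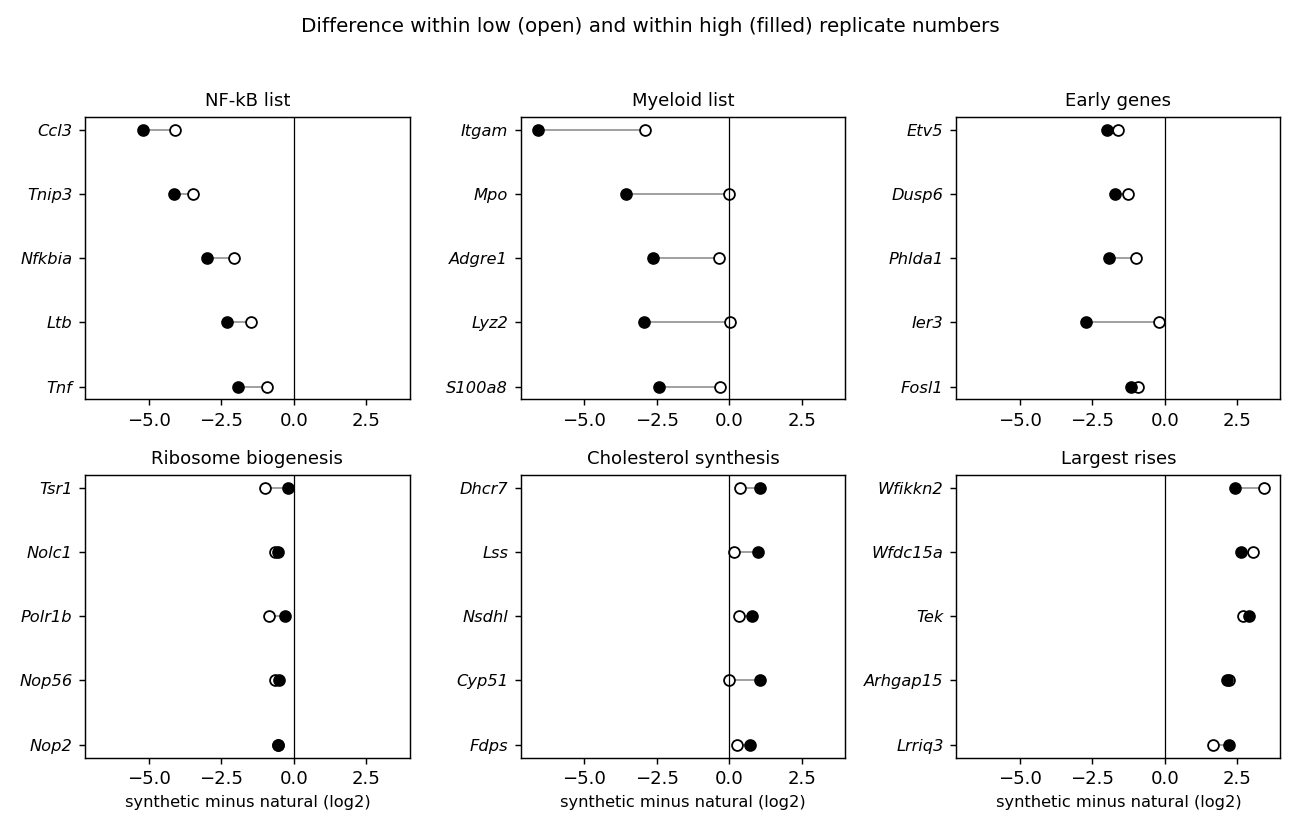
Synthetic minus natural difference (log2) of 30 genes within the low numbers (open) and within the high numbers (filled), by gene list. Mpo and Lyz2 stand at 0 on the open points and near -3 or beyond on the filled ones, while the 2 points nearly coincide for Tek and Arhgap15.

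Interferon-stimulated genes were lower where they passed: 7 of 27 (25.9%, against 6.62% of all genes), 0 higher, with a median of -0.15. The 7 became 5 without natural array 4 or 5. Within the low numbers 2 were lower (median -0.06), and within the high numbers 10 were lower and 1 higher (median -0.36). Gbp3, a guanylate-binding protein, read 7.01, 6.75, 6.67 and 6.86 against 5.05 to 5.61 (log2 -1.48, adjusted p = 4.54e-09). Ifi27 (-0.89, adjusted p = 3.69e-06) and Usp18 (-0.89, adjusted p = 0.00288) followed, Usp18 by -0.17 within the low numbers (adjusted p = 0.63). Of 20 germ line genes that methylation keeps silent 0 passed and all 20 were dim in both lines.

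Neighbouring genes were examined along the RefSeq gene order, in which 19919 genes had a place. With differences rounded to 3 decimals, 471 of these genes were past the threshold and at least 1.5-fold apart. Among the 471, 6 runs of at least 3 neighbours in the same direction were found, 5 of them lower and 1 higher. The longest was Aif1, Lst1, Ltb and Tnf in the MHC class III region, lower by 1.12, 0.73, 1.89 and 1.42. Cd274 and Pdcd1lg2, for the checkpoint ligands PD-L1 and PD-L2, were lower by 1.18 and 0.90 next to Plgrkt at 0.71. Gbp7, Gbp3 and Gbp2b, near-identical in parts so that probes may be shared, were lower by 1.11, 1.48 and 0.73. Sp140 with 2 predicted neighbours, and Tuba8, Usp18 and Slc6a13, made up the other lower runs. The higher run was a set of olfactory receptor genes, Olfr417, Olfr248 and Olfr414, by 1.35, 1.598 and 1.01, which are alike in sequence and for which probes may be shared as well. Over windows of 50 neighbouring genes the median difference stayed between -0.09 and 0.14.

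The ligand-treated arrays gave the same lines a second reading in other arrays, in which line and ligand cannot be told apart. The GFP-mCherry arrays carry the same replicate numbers as the untreated synthetic arrays. The IL-22 and mCherry-Fc arrays share some numbers with the untreated arrays of their line. Whether a shared number means the same culture is not given in the sources used here, so the second reading may not be independent. The IL-22 arrays and the untreated natural arrays also hold different sets of numbers, which limits the comparison for genes that split the natural line. In the ligand-treated arrays the mean of GFP-mCherry and mCherry-Fc was set against IL-22. There 8586 genes (43.1%) passed the threshold, 4884 higher (24.5%) and 3702 lower (18.6%). Of the 31 genes at least 2-fold higher in untreated synthetic cells, 31 were higher past the threshold there and 24 at least 2-fold, where 119 genes (0.597%) were so over all genes. Of the 128 at least 2-fold lower, 122 were lower past the threshold, 88 at least 2-fold (263 genes, 1.32%, over all genes) and 0 were higher past it. All 18 synthetic arrays lay on one side of all 8 natural arrays for 814 genes (4.08%), above them for 561 (2.81%) and below them for 253 (1.27%), with 24 of them among the 31 and 85 among the 128.

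Il22ra1 (log2 -5.997 untreated and -5.987 with ligand) and Prkd3 (-2.45 and -2.43) had nearly the same difference in both readings, while Tek (2.81 and 2.42) and Ptprcap (1.80 and 2.15) kept its direction at another size. Values of other genes lay further apart. Nfkbia stood at 11.03 in natural cells and 8.51 in synthetic cells untreated, at 10.95 with IL-22, at 11.73 with GFP-mCherry and at 8.58 with mCherry-Fc. Its difference from IL-22 was therefore 0.78 with one ligand and -2.37 with the other, and their mean of -0.80 describes neither. Dusp6 differed by -1.495 untreated and 0.09 with ligand (adjusted p = 0.447), and Etv5 by -1.81 and -0.46. Pim2 differed by -3.33 and -1.83. In the opposite way Cxcr2, a chemokine receptor of neutrophils, differed by -1.65 untreated (8.03, 8.01, 8.74 and 9.23 against 6.59 to 7.12, adjusted p = 6.55e-09) and -4.03 with ligand. Il2ra went from -1.30 to -5.28. Socs3, equal within the interval given above while untreated, differed by -3.42 with ligand, and Cish went from -0.75 to -2.06. The difference between the untreated and the ligand-treated values was not tested.

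**Figure D5:**
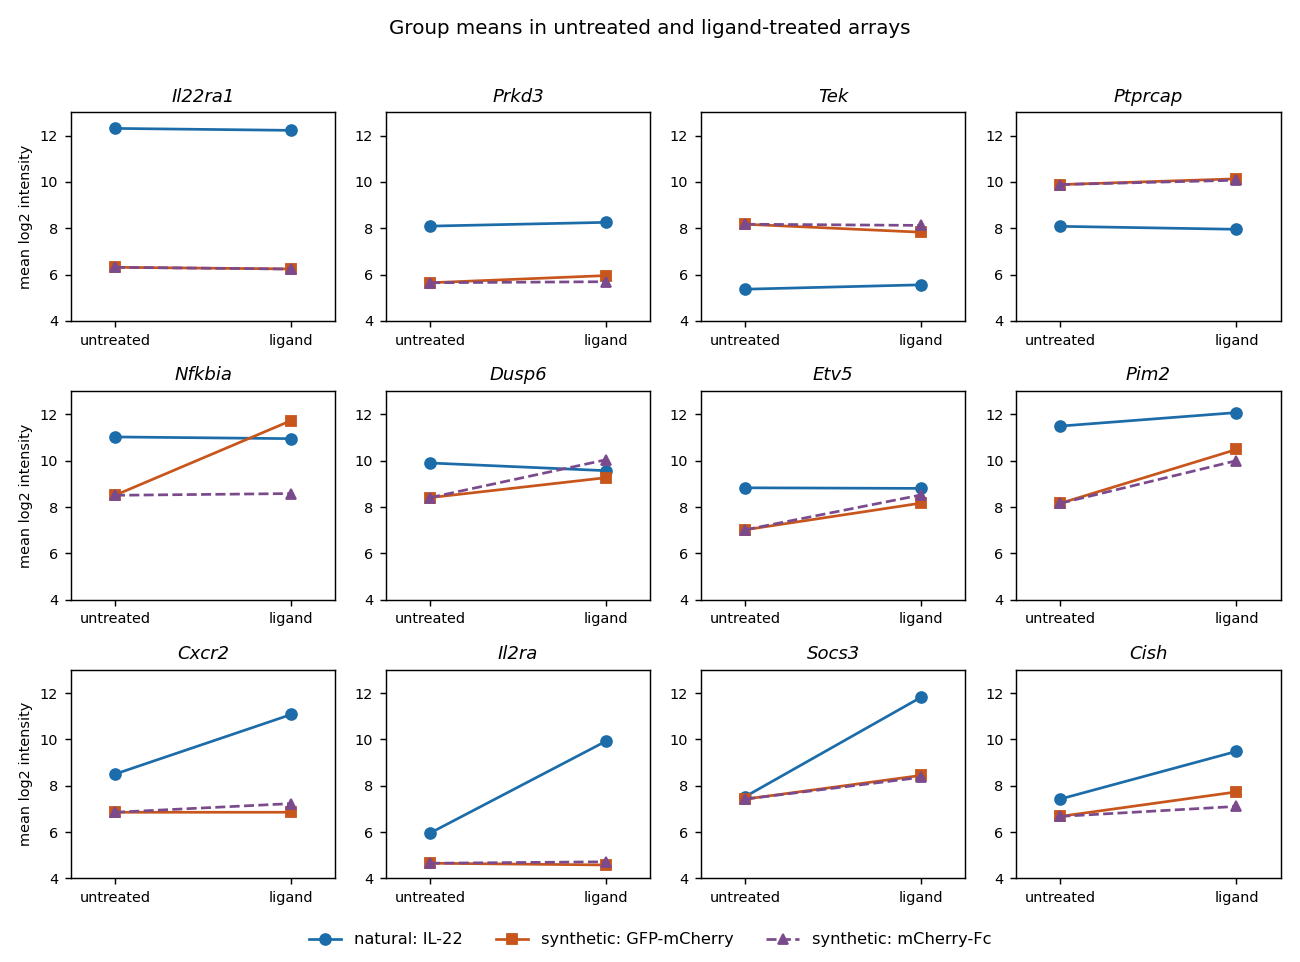
Mean log2 intensity of 12 genes in untreated arrays (left) and arrays given ligand (right): blue circles, natural cells given IL-22 (4 arrays at each end); orange squares and purple triangles, synthetic cells given GFP-mCherry or mCherry-Fc (6 arrays each). The lines keep their order in Il22ra1, Prkd3, Tek and Ptprcap, and Nfkbia rises from 8.51 to 11.73 with GFP-mCherry but stands at 8.58 with mCherry-Fc.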

How the data were processed

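Total RNA of Ba/F3/gp130 cells (150 ng) was amplified and hybridised to Affymetrix arrays, per the labels' protocols. The authors deposited log2 intensity values per probe set, made with Affymetrix Expression Console 4.0 per the submitters' processing notes and the labels' description. The algorithm, background correction and genome build are not given in the sources used here. No counts lie behind these values, and the number of arrays limits the precision. Values ran from 1.79 to 14.31.

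Of 35556 probe sets 21789 had 1 symbol, 1621 several and 12146 none, and only the first were used. Where a gene had more than 1 probe set (999 genes), its brightest one on average was kept, giving 19938 genes, with no filter on dim ones. A linear model with 5 groups was fitted to all 26 arrays with limma 3.58.1 in R 4.3.3 (two-sided moderated statistics), with Benjamini-Hochberg adjustment over all genes and a threshold of 0.05. The fit was tested on simulated data.

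Genes named are the 14 largest rises and falls without predicted loci, small RNA genes, immune receptor segments and olfactory or vomeronasal receptors, the 5 largest called members of each of 58 lists (1090 of 1197 listed genes measured), a fixed set of receptors, STAT genes and markers, and members that spell out small counts. Not every gene the rule names is described. Genes of neighbour runs, the full NF-kB and present-or-dim lists, Cd79a, Ptprc and Gata2 were chosen after their values were seen. The members and lists were chosen with earlier results of these data known. Alternatives covered normalization, centring, probe sets, filters, the variance prior, array weights, the arrays fitted, a minimum change, a replicate block, ranges of replicate numbers and each array left out.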

Additional observations from a re-analysis of the deposited data

Results flagged for a closer look

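In 252 pairs of a gene and a group of untreated arrays, 9 had 1 array far from the others relative to the range of the group. Chance alone gives about 1 in 20, so the 9 are no more than chance gives. In natural arrays, Il4ra read 8.96 in array 5 with the others at 8.77 to 8.78, Xbp1 read 11.495 in array 2 with the others at 11.40 to 11.42, and Psph read 7.46 in array 5 with the others at 7.499 to 7.505. In synthetic arrays, Dusp6 read 8.52 in array 14 (others 8.37 to 8.40), Mpo 7.36 in array 13 (others 7.15 to 7.20), Lyz2 4.42 in array 14 (others 5.11 to 5.26), Clec4e 5.00 in array 7 (others 4.68 to 4.78), Kit 5.88 in array 7 (others 5.30 to 5.52) and Epb42 5.80 in array 13 (others 5.50 to 5.59).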

How the results depend on the processing

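No paired analysis was possible because the untreated groups share no replicate number. With the number within each line as a random replicate block (correlation 0.26) 3147 genes passed, against 3034. Fitting only the 10 untreated arrays gave 1722 genes, 854 higher and 868 lower. Testing for a change above 1.5-fold gave 99 genes, 26 higher and 73 lower, of them 71 at least 2-fold lower, 33 listed and 51 of the 234 called genes eligible for naming. Within the low numbers 1341 genes passed (447 higher; 20 at least 2-fold higher, 48 at least 2-fold lower; 143 of 309 listed genes, 106 of the 234), and within the high numbers 5003 (3242 higher; 111 and 258 at least 2-fold higher and lower). Natural low against synthetic high numbers gave 76 genes at least 2-fold lower and 148 of the 234, and natural high against synthetic low numbers gave 204. Among genes with a mean above 7, 76 were at least 2-fold lower and 7876 lay within 1.5-fold. The 90th percentile as the dim level left 9 of 14 genes and the 99th gave 19.

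Leaving out 1 array gave 2058 to 3363 genes, 1007 to 1999 higher, 987 to 1364 lower, 25 to 35 at least 2-fold higher, 85 to 156 at least 2-fold lower, 18125 to 18696 within 1.5-fold, 226 to 316 listed genes and 180 to 226 of the 234. The share higher among called genes was 56.5%, 26.3% with the minimum change, 33.3% within the low and 64.8% within the high numbers, and 48.9% to 61.8% under the other alternatives without crossed ranges. Of 126 genes of the text 10 changed sign under some setting. For Il3ra, Ebf1, Kit and Stat3 neither value passed the threshold, and for the other 6 the value or its alternative passed under 1 setting each: Csf2rb at 0.48 and Mpo at 0.072 and Fcgr2b at 0.10 with natural low against synthetic high numbers, Csf2rb2 at -0.40 with natural high against synthetic low numbers, and Lyz2 at 0.022 and Cyp51 at -0.013 within the low numbers. The cause was not tested. A call was lost under at least 1 setting by 69 of the 126. Dim probe sets limit what can be said of low genes, since 6888 genes were dim in both lines.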
